A study of Mus musculus with 18 samples.

Results

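The 10 genes described here encode parts of the epithelial cell surface and cytoskeleton: the keratins Krt8, Krt18 and Krt19, the claudins Cldn4, Cldn6 and Cldn7, the adhesion proteins Cdh1 and Epcam, the water and glycerol channel Aqp3, and the tetraspan membrane protein Emp2. They are 10 of the 22180 genes measured, listed by symbol, and each was read from its brightest probe set, by the mean over 18 arrays. The list was chosen partly on measured values, the genotype differences of Aqp3 and Cldn4 at day 7 and of Emp2 at day 21. Values of Pax7-/- against Pax7+/+ are therefore given for these genes as a description, with no p. A count of these genes past a threshold between genotypes restates in part how they were chosen, and nothing is read from it. The steps between days, averaged over both genotypes, are tested.

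Mouse embryonic stem cells of an F1 of C57Bl6N and 129Sv, with the genotype Pax7+/+ or Pax7-/-, were measured on Affymetrix arrays, 3 per genotype and day. At day 0 the cells were undifferentiated and grown with LIF, the cytokine that keeps mouse stem cells undifferentiated. At day 7 they were embryoid bodies, and at day 21 outgrowths of embryoid bodies, both grown without LIF and with RA and ITS. Pax7 encodes a paired box transcription factor, and its probe set had group means of 5.51 to 5.85 log2 with genotype differences of 0.03 ± 0.23, -0.01 ± 0.24 and 0.25 ± 0.24 log2 (SE) at days 0, 7 and 21, so that it checked no label. How the allele was made and how many clones were used are not given in the sources used here.

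Epithelial cells are held together by adherens junctions, built on E-cadherin (Cdh1), and by tight junctions, whose strands are made of claudins and seal the space between neighbours. Keratin 8 pairs with keratin 18 to form the intermediate filaments of simple epithelia, which in the early mouse embryo are the trophoblast and the endoderm. Mouse embryonic stem cells already carry E-cadherin and Epcam, and lose them in those descendants that leave the epithelial state.

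Values spread differently on 2 kinds of array. On 10 narrow arrays the SD across probe sets lay between 1.37 and 1.45 log2, and on 8 wide ones between 1.79 and 1.85 log2. Every group held both sets of arrays, and the labels do not say what the sets are. All values are log2 intensities, the array medians were 4.55 to 4.97 log2, and no level of a gene is set against that of another gene. Unless a genotype is named, a step between days is the mean of the Pax7+/+ and Pax7-/- differences, from a limma model that has a block term for array set. Genes under an adjusted p of 0.05 (Benjamini-Hochberg, over all 22180) are said to pass. Without the block none of the 10 genes passed any step, and over all genes 15 passed higher and 10 lower from day 0 to day 7. The arrays were made from mixed cell populations, so fewer cells of a type and less RNA per cell cannot be told apart.

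RefSeq promoters (GRCm38.p6) were at hand for 9 transcription starts of 8 of the genes, and not for Cdh1 and Krt19. The 250 bases before the start are shown for Krt8 and Krt18, which lie next to each other and changed in parallel below, for Cldn4 and Aqp3, which read lower in Pax7-/- at day 7, and for Epcam, which holds a pair of the marked motif. Capitals mark the hexamer CAGGTG or its reverse complement, the E-box letters that the Snail and Zeb repressors of epithelial genes are known to bind. Krt8 lies at chr15:102004343-102004592 (minus strand), Krt18 at chr15:102027966-102028215 (plus strand), Cldn4 at chr5:134946935-134947184 (minus strand), Aqp3 at chr4:41098184-41098433 (minus strand) and Epcam at chr17:87635729-87635978 (plus strand).
Krt8: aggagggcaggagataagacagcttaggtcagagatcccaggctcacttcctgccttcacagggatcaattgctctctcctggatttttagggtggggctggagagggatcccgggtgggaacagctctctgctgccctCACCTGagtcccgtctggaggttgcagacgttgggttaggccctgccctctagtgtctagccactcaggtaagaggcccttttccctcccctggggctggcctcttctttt
Krt18: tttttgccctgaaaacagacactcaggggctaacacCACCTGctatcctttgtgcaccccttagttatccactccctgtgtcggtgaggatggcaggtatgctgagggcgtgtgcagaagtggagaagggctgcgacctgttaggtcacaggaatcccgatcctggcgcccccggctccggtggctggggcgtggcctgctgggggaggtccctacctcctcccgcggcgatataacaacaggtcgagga
Cldn4: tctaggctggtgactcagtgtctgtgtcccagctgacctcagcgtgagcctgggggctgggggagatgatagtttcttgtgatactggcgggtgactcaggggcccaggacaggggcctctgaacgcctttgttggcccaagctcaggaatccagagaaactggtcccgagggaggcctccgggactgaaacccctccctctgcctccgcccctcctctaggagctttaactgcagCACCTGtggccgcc
Aqp3: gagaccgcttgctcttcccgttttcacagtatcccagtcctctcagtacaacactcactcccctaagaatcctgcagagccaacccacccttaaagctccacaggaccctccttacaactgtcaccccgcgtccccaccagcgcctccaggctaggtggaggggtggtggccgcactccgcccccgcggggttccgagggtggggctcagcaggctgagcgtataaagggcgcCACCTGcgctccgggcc
Epcam: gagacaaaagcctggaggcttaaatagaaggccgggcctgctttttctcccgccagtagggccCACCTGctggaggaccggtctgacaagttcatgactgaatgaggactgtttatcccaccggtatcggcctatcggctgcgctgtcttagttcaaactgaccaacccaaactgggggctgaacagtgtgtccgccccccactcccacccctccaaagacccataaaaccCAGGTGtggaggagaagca
The E-box was present, on either strand, in 7 of the 9 windows, those of Aqp3, Cldn4, Cldn6, Epcam, Krt8, Krt18 and 1 of the 2 Cldn7 starts, against 17.2% of 32851 mouse promoters of the same length. It began 17 bases before the start in Aqp3, 14 in Cldn4, 111 in Krt8, 214 in Krt18, and 187 and 19 in Epcam. Of the windows not shown, that of Cldn7 also held a pair, 97 and 57 bases before the start, and that of Cldn6 a match at 93. The GC box of Sp and Klf factors, spelled GGGCGG, was present in 6 of the 9 windows, against 32.7% of promoters. A TATA box, searched as TATAAA, was found in Aqp3 alone of these windows and in 12.4% of promoters. An AP-1 site, searched as TGANTCA, was found in Cldn4 alone, against 6.75% of promoters. A Gata site, searched as AGATAA, was found in Krt8 alone, against 9.99% of promoters. The Grhl motif AACCNGTT was in none of the 9 and in 1.79% of promoters. All were searched on both strands and no match overlapped another. A match describes letters, and binding was not measured.

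Simple epithelial keratins were higher in embryoid bodies than in undifferentiated cells, and still higher than at day 0 in the outgrowths. Krt18 in Pax7+/+ read 6.05, 6.02 and 6.54 log2 at day 0, 8.30, 9.90 and 9.58 at day 7 and 8.75, 10.23 and 8.57 at day 21. In Pax7-/- it read 6.69, 7.86 and 6.85, then 7.88, 9.67 and 7.99, then 7.48, 9.53 and 9.23. In these lists, here and below, the wide arrays are replicate 3 of Pax7+/+ day 0, replicates 2 and 3 of Pax7+/+ day 7 and of Pax7-/- day 21, and replicate 2 of the other groups. Within each set, the day 0 arrays were below those of day 7 in both genotypes. Krt18 rose by 1.99 ± 0.16 log2 from day 0 to day 7 (SE, limma adjusted p = 5.45e-07), or 3.98-fold, by 1.72 in the narrow and 2.51 in the wide arrays. From day 7 to day 21 its difference was 0.08 ± 0.15 log2 (limma adjusted p = 0.845).

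Krt8, which encodes the partner of keratin 18, read 7.25, 6.74 and 6.48 log2 in Pax7+/+ at day 0, 8.25, 9.61 and 9.67 at day 7 and 8.64, 10.16 and 8.63 at day 21. The Pax7-/- arrays read 7.34, 7.95 and 7.35, then 7.97, 9.44 and 8.27, then 7.67, 9.38 and 8.91. No day 0 array reached a day 7 array of its genotype. Its step was 1.52 ± 0.24 log2 (limma adjusted p = 0.00052), or 2.87-fold, with 1.01 in the narrow and 2.32 in the wide arrays. Krt19, a small acidic keratin of simple epithelia, read 5.33, 5.16 and 4.55 log2 in Pax7+/+ at day 0, 5.67, 7.32 and 7.03 at day 7 and 5.80, 7.56 and 5.97 at day 21. Its Pax7-/- values were 5.30, 5.77 and 5.32, then 5.93, 7.25 and 6.11, then 5.55, 7.08 and 6.57. The increase was larger in the wide arrays (2.05) than in the narrow ones (0.57), and in the joint fit it was 1.16 ± 0.25 log2 (limma adjusted p = 0.00796).

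The wide Pax7+/+ day 0 array, replicate 3, was low for the keratins: it read 6.48 log2 for Krt8 and 4.55 for Krt19, below both narrow arrays of its group, and 6.54 for Krt18, against 7.86 on the wide Pax7-/- array of that day. Without it the day 0 to day 7 steps of Krt8, Krt18 and Krt19 were 1.18, 1.79 and 0.79 log2, each still past the threshold in limma. The step of Krt19 from day 0 to day 21, 1.03 ± 0.25 log2, came to 0.66 log2 without that array.

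**Figure D1:**
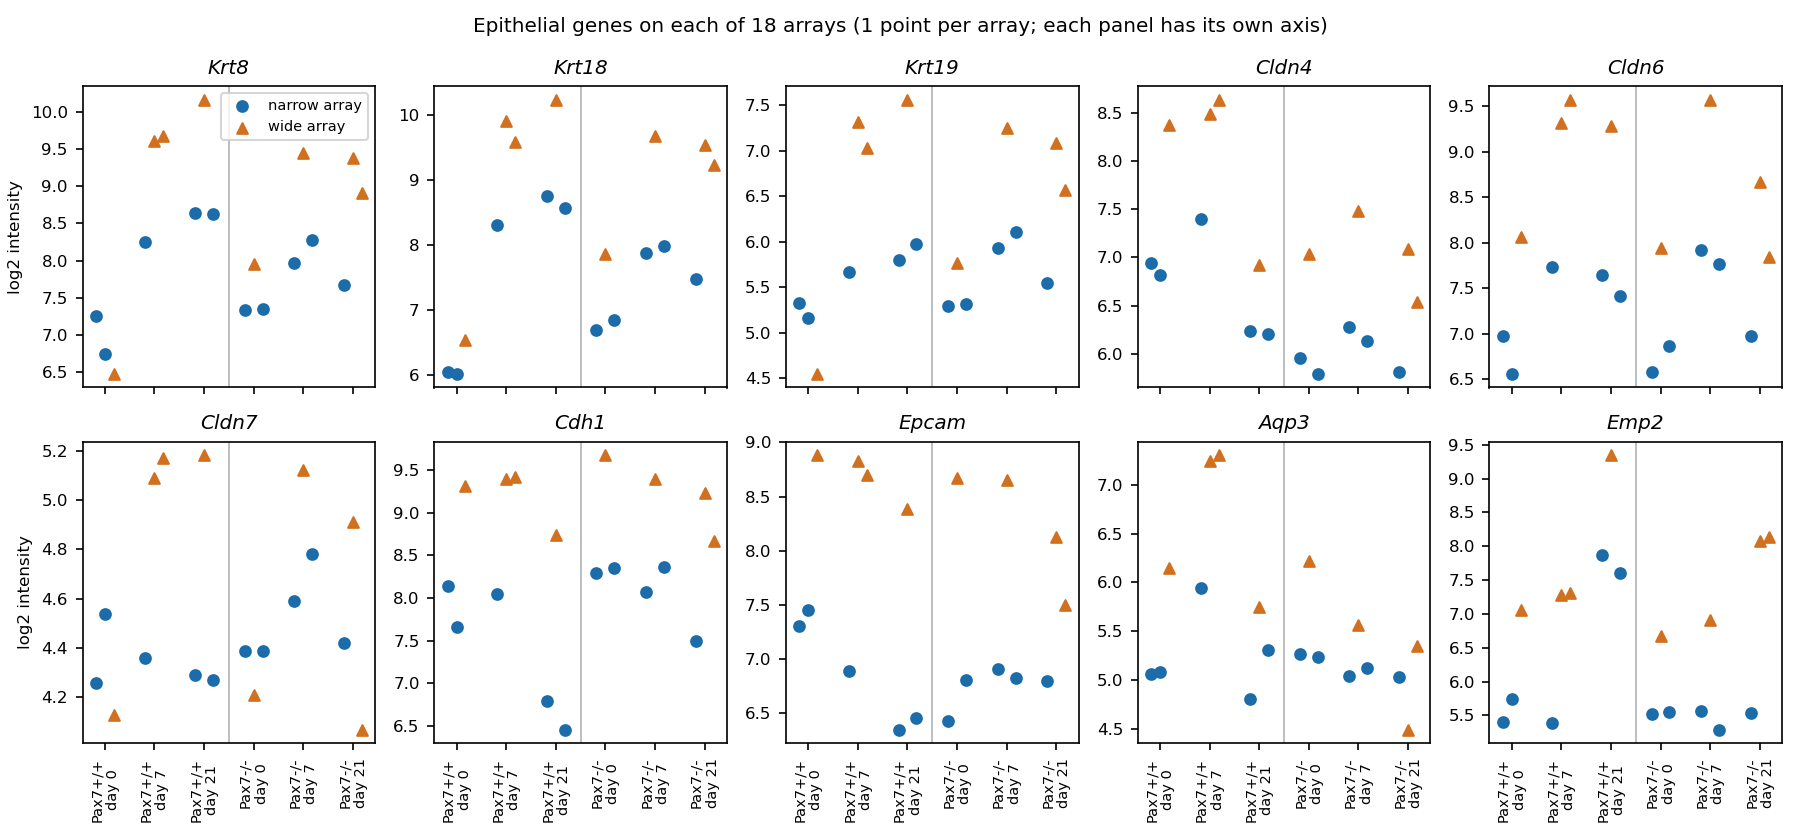
Log2 intensity of each of the 10 genes by group, with 1 point per array, 3 arrays per group, and narrow and wide arrays marked apart. Krt18 lies at 6.02 to 7.86 log2 at day 0 and at 7.88 to 9.90 log2 at day 7 in the 6 arrays of each day.

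Of the claudins, Cldn6 followed the keratins up to day 7 and Cldn4 turned down after it. Cldn6, a claudin of embryonic epithelia, read 6.98, 6.56 and 8.06 log2 in Pax7+/+ at day 0, 7.73, 9.31 and 9.57 at day 7 and 7.64, 9.28 and 7.41 at day 21. In Pax7-/- it read 6.58, 7.94 and 6.87, then 7.92, 9.57 and 7.77, then 6.98, 8.67 and 7.84. Within each set, day 0 lay below day 7 in both genotypes. Cldn6 rose by 1.23 ± 0.14 log2 to day 7 (limma adjusted p = 3.06e-05), or 2.35-fold, and then fell by 0.67 ± 0.14 log2 to day 21 (limma adjusted p = 0.00824). The fall did not pass in the narrow or the wide arrays alone (limma adjusted p = 0.123 and 0.0628).

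Cldn4, which encodes a sealing claudin, read 6.94, 6.82 and 8.38 log2 in Pax7+/+ at day 0, 7.40, 8.49 and 8.64 at day 7 and 6.23, 6.92 and 6.20 at day 21. The Pax7-/- arrays read 5.95, 7.04 and 5.79, then 6.28, 7.48 and 6.13, then 5.81, 7.09 and 6.54. The Pax7+/+ arrays of day 21 lay below those of day 0 and day 7 of the same set. Cldn4 fell by 0.94 ± 0.11 log2 from day 7 to day 21 (limma adjusted p = 0.000127), or 1.92-fold, by 0.79 in the narrow and 1.15 in the wide arrays. Within Pax7-/- Cldn4 did not pass in this step, at -0.53 ± 0.16 log2 (limma adjusted p = 0.152). Its rise of 0.39 ± 0.11 log2 from day 0 to day 7 (limma adjusted p = 0.0346) was lost without any 1 of 9 of the 18 arrays, namely replicate 1 or 2 of Pax7+/+ day 0, any replicate of Pax7+/+ day 7, replicate 2 or 3 of Pax7-/- day 0 and replicate 1 or 2 of Pax7-/- day 7 (0.0558 to 0.083). It was also lost in the wide arrays alone (limma adjusted p = 0.259), after median centring (0.0637) and with replicate as a block (0.0632).

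Cldn7 ranged over all arrays only from 4.07 to 5.18 log2, near the array medians, and passed no step of the joint fit: 0.48 ± 0.17 log2 to day 7 (limma adjusted p = 0.0945) and -0.33 ± 0.17 log2 from day 7 to day 21 (limma adjusted p = 0.285). The first of these passed without Pax7+/+ day 7 replicate 1 (0.049) or Pax7+/+ day 21 replicate 2 (0.0479), and in the wide arrays alone, where it was 0.95 log2 (0.0225) against 0.12 in the narrow ones.

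Averaged over both genotypes, both adhesion genes passed no test from day 0 to day 7 and were lower at day 21. Within Pax7-/- neither passed from day 7 to day 21, with Cdh1 at -0.63 ± 0.20 log2 (limma adjusted p = 0.164) and Epcam at -0.55 ± 0.20 (0.264). Cdh1 read 8.14, 7.66 and 9.31 log2 in Pax7+/+ at day 0, 8.05, 9.39 and 9.42 at day 7 and 6.79, 8.74 and 6.46 at day 21. Its Pax7-/- values were 8.29, 9.67 and 8.35, then 8.07, 9.39 and 8.36, then 7.50, 9.23 and 8.67. In Pax7+/+ each day 21 array lay below the day 7 array of its set. Cdh1 fell by 0.88 ± 0.14 log2 from day 7 to day 21 (limma adjusted p = 0.00108), or 1.84-fold; the wide arrays alone gave -0.55 log2 (limma adjusted p = 0.0574). From day 0 to day 7 its difference was -0.04 ± 0.14 log2 (limma adjusted p = 0.917). A second probe set of Cdh1, at 4.04 to 5.57 log2, differed by -0.14 ± 0.16 log2 in the step that fell.

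Epcam, the gene of an adhesion protein of embryonic stem cells and epithelia, read 6.35 to 8.88 log2 over the Pax7+/+ arrays and 6.43 to 8.67 over those of Pax7-/-. On the narrow Pax7-/- arrays it read 6.43 and 6.81 at day 0, 6.91 and 6.83 at day 7 and 6.8 at day 21. The wide Pax7-/- arrays read 8.67, then 8.65, then 8.13 and 7.5 for Epcam. It fell by 0.53 ± 0.14 log2 from day 7 to day 21 (limma adjusted p = 0.0326), a call lost in the narrow (0.467) or wide (0.0569) arrays alone. It was lost, too, without replicate 2 or 3 of Pax7+/+ day 7 or of Pax7-/- day 21, replicate 1 or 3 of Pax7+/+ day 21, or any replicate of Pax7-/- day 7 (0.0589 to 0.0881). Over the whole course, from day 0 to day 21, the fall was 0.61 ± 0.14 log2 (limma adjusted p = 0.00636), and -0.40 log2 in the narrow arrays alone (0.0564).

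Averaged over both genotypes, Aqp3 and Emp2 took opposite courses after day 7. Within Pax7-/- neither passed from day 7 to day 21, with Aqp3 at -0.53 ± 0.26 log2 (limma adjusted p = 0.431) and Emp2 at 0.77 ± 0.22 (0.13). In the narrow Pax7-/- arrays these were -0.06 and 0.11 log2. Aqp3 read 5.06, 5.08 and 6.15 log2 in Pax7+/+ at day 0, 5.94, 7.24 and 7.30 at day 7 and 4.80, 5.75 and 5.31 at day 21. In Pax7-/- it read 5.26, 6.22 and 5.23, then 5.04, 5.56 and 5.12, then 5.03, 4.49 and 5.35. The Pax7+/+ day 7 arrays were the highest of each set. Aqp3 fell by 0.91 ± 0.18 log2 from day 7 to day 21 (limma adjusted p = 0.00631), or 1.88-fold; in the narrow arrays alone the difference was -0.47 log2 (limma adjusted p = 0.161).

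Emp2 read 5.40, 5.74 and 7.05 log2 in Pax7+/+ at day 0, 5.39, 7.28 and 7.31 at day 7 and 7.87, 9.34 and 7.61 at day 21. The Pax7-/- arrays read 5.52, 6.68 and 5.55, then 5.56, 6.91 and 5.29, then 5.53, 8.08 and 8.14. At day 21 every Pax7+/+ array exceeded the earlier arrays of its set, whereas in Pax7-/- the narrow array, replicate 1, stayed at the earlier level. Emp2 rose by 1.47 ± 0.15 log2 from day 7 to day 21 (limma adjusted p = 4.13e-05), or 2.78-fold, after a difference of 0.02 ± 0.15 log2 from day 0 to day 7 (limma adjusted p = 0.97).

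Of the 10 genes, 5 rose and 0 fell from day 0 to day 7, where 4.78% of all genes rose and 4.99% fell; their median difference was 0.45 log2, against -0.01 over all genes. From day 7 to day 21, 1 rose and 5 fell, where 2.50% of all genes rose and 4.82% fell; the median was -0.43 log2, against 0.01. Over the whole course to day 21, 5 rose (Krt8, Krt18, Krt19, Cldn6 and Emp2) and 3 fell (Cldn4, Epcam and Cdh1), where 22.1% of all genes passed in either direction. The steps share arrays of day 7 or of day 0 and are not independent of each other. Emp2, which rose from day 7 to day 21, and Aqp3 and Cldn4, which fell, were chosen on genotype differences at day 7 or day 21. Cldn4 also counts among the 5 to day 7, and Emp2 and Cldn4 count over the whole course. Those genotype differences are not the averages tested, but they use the same arrays. The counts beside the shares are therefore not wholly free of that choice.

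**Figure D2:**
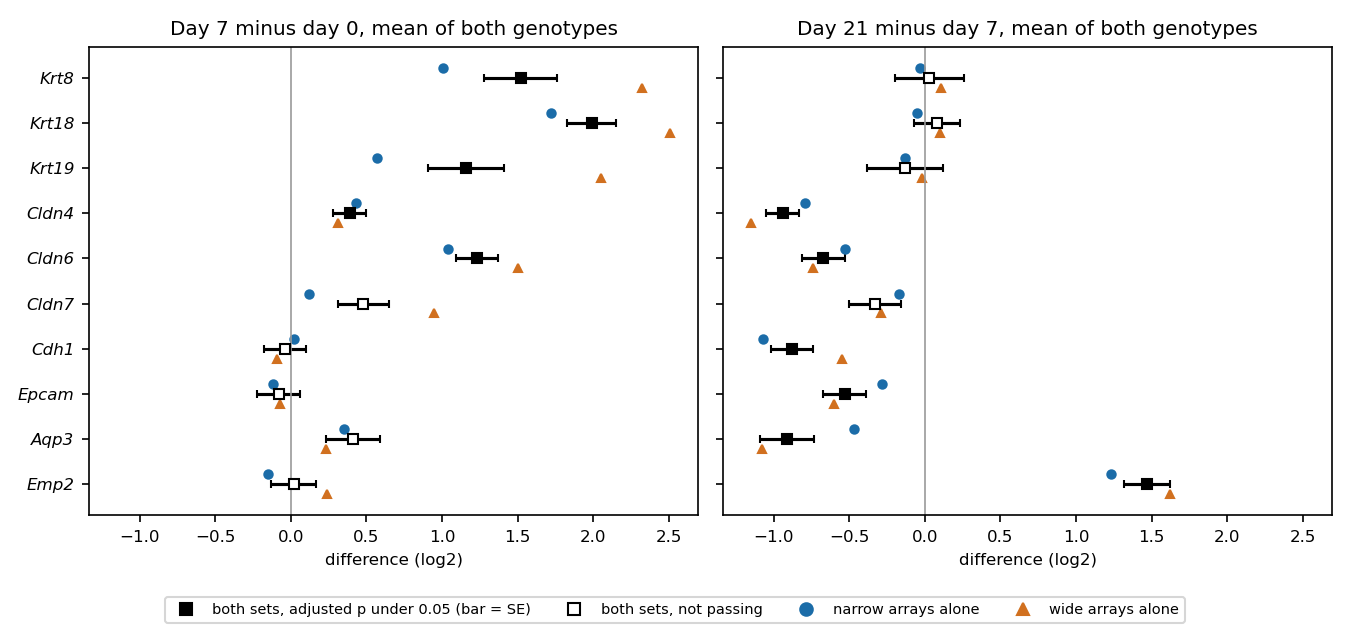
Log2 difference of each gene between days, averaged over both genotypes, with bars for the SE of the limma fit, and the values of narrow and wide arrays alone as separate points. The keratins and Cldn6 lie to the right of 0 from day 0 to day 7, and Emp2 alone lies clear to the right from day 7 to day 21.

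Steps within 1 genotype use arrays that also enter the genotype differences the list was chosen on, so for Aqp3, Cldn4 and Emp2 their p-values are not free of that choice. Within Pax7+/+, 5 of the genes rose from day 0 to day 7 and 0 fell, against 2.54% and 3.14% of all genes. The 5 include Aqp3, which was chosen on its day 7 values. Krt18 rose by 2.60 ± 0.22 log2 (limma adjusted p = 3.43e-06), Krt8 by 2.03 ± 0.34 (0.00154), Krt19 by 1.36 ± 0.36 (0.0389), Cldn6 by 1.17 ± 0.20 (0.002) and Aqp3 by 1.15 ± 0.26 (0.0146). Without the Pax7+/+ day 0 replicate 3 array Krt8 was at 1.34 log2 and Krt19 at 0.61 log2 (limma adjusted p = 0.292). Without any 1 of 6 further arrays, replicates 2 and 3 of Pax7+/+ day 7, 1 and 3 of Pax7-/- day 0 and replicate 3 of Pax7-/- days 7 and 21, the call of Krt19 was lost (0.0514 to 0.152), as it was in the narrow arrays alone (0.42 log2, limma adjusted p = 0.304) and with limma's trend and robust options (0.0564). Without Pax7+/+ day 7 replicate 2 or 3 the call of Aqp3 was lost (0.0653 and 0.0718). Within Pax7-/-, 2 rose, Krt18 by 1.38 ± 0.22 log2 (limma adjusted p = 0.00148) and Cldn6 by 1.29 ± 0.20 (0.00109), and 0 fell, against 2.05% and 1.82% of all genes. Krt19 differed by 0.96 ± 0.36 log2 in Pax7-/- (limma adjusted p = 0.168), by 0.71 in the narrow and 1.48 in the wide arrays. It passed after quantile normalization (limma adjusted p = 0.00228), after median centring with a common SD (0.0315) and without Pax7+/+ day 0 replicate 3 (0.0122). Krt8 differed by 1.01 ± 0.33 log2 in Pax7-/- (limma adjusted p = 0.11, and 0.00506 when Pax7+/+ day 0 replicate 3 was left out), by 0.77 in the narrow and 1.49 in the wide arrays. Aqp3 differed by -0.32 ± 0.25 log2 (limma adjusted p = 0.554).

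From day 7 to day 21 in Pax7+/+, Emp2 rose by 2.18 ± 0.22 log2 (limma adjusted p = 3.4e-05), or 4.54-fold, and Cldn4, Aqp3 and Cdh1 fell, by 1.35 ± 0.16, 1.29 ± 0.26 and 1.13 ± 0.20 log2 (Cdh1 in the wide arrays alone -0.66, limma adjusted p = 0.0973); 1.37% of all genes rose and 4.48% fell. Emp2, Cldn4 and Aqp3 were chosen on genotype differences that use these Pax7+/+ arrays. Nothing is therefore read from their calls, or from the number of calls beside these shares. In Pax7-/- 1 gene fell, Cldn6 by 1.08 ± 0.20 log2 (limma adjusted p = 0.0158), and 0 rose, where 0.379% of all genes fell and 0.455% rose. Emp2 differed there by 0.77 ± 0.22 log2 (limma adjusted p = 0.13), and by 1.18 log2 without Pax7-/- day 21 replicate 1 (0.00236). The call of Cldn6 was lost in the narrow and in the wide arrays alone, and without Pax7-/- day 7 replicate 1 or 2 or Pax7-/- day 21 replicate 3 (0.0623 to 0.129). Epcam, at -0.55 log2, came to -0.88 (0.0226) without Pax7-/- day 21 replicate 1. A step that passed in 1 genotype and not in the other is not shown to differ between them.

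Between genotypes, Cldn4 read lower in Pax7-/- in the undifferentiated cells and at day 7, with a smaller difference at day 21. At day 0 Pax7-/- minus Pax7+/+ was -1.12 ± 0.16 log2 for Cldn4, or 2.17-fold lower, with -1.01 in the narrow and -1.34 in the wide arrays, and no Pax7-/- array reached a Pax7+/+ array of its set. Krt18 was higher in Pax7-/- by 0.93 ± 0.22 log2 and Krt8 by 0.73 ± 0.33; without the wide Pax7+/+ day 0 array these were 0.59 and 0.13 log2, and Krt8 was 1.12 log2 without replicate 1 of that group. Epcam differed by -0.58 ± 0.20 log2 (-0.22 in the wide arrays alone), and the other 6 genes by -0.14 to 0.45 log2. The highest of these, Krt19, was 1.22 log2 in the wide arrays alone and -0.19 without Pax7+/+ replicate 3. As background, 0.388% of all genes were past the limma threshold as higher and 0.893% as lower, with Krt18 among the first and Cldn4 among the second.

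At day 7 Aqp3 was lower in Pax7-/- by 1.34 ± 0.26 log2, 2.53-fold, with -0.85 in the narrow and -1.71 in the wide arrays, and Cldn4 by 1.17 ± 0.16 log2, 2.25-fold. Both values are those the list was chosen on. As background, 0.307% of all genes, these 2 among them, were past the threshold as lower and 0.320% as higher. The other 8 genes differed by -0.30 to 0.15 log2.

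At day 21 Emp2 was lower in Pax7-/- by 1.59 ± 0.22 log2, 3.01-fold, with -2.21 in the narrow and -1.23 in the wide arrays, and by 1.18 log2 without Pax7-/- replicate 1. Krt18 was lower by 0.89 ± 0.22 log2, Krt8 by 0.81 ± 0.34 and Cldn6 by 0.78 ± 0.20, while Cdh1 was higher by 0.65 ± 0.20, or by 0.95 log2 without Pax7+/+ replicate 2. For Cdh1 the wide arrays alone gave 0.21 log2, the mean of its probe sets 0.26 and its second probe set -0.13 ± 0.23. Krt8 and Krt18 had the opposite sign to day 0. Cldn4 differed by -0.35 ± 0.16 log2, with -0.4 in the narrow and -0.11 in the wide arrays. Aqp3 differed by -0.58 ± 0.26 log2, with -0.03 in the narrow and -0.83 in the wide arrays. Epcam, Cldn7 and Krt19 differed by -0.35 to -0.16 log2. The Emp2 value is one the list was chosen on. As background, 1.07% of all genes were past the threshold as lower, with Emp2, Krt18 and Cldn6 among them, and 3.82% as higher; after quantile normalization these were 506 and 876 genes in place of 238 and 847. The median difference of the 10 genes was 0.08, -0.14 and -0.47 log2 at days 0, 7 and 21. The genotype difference itself became lower past the threshold for 0.153% of all genes between day 0 and day 7, for 0.189% between day 7 and day 21 and for 0.356% between day 0 and day 21. Emp2 was among the last 2 sets and Krt18 among the last, but the Emp2 change contains the day 21 value used for the choice and is no result of its own.

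**Figure D3:**
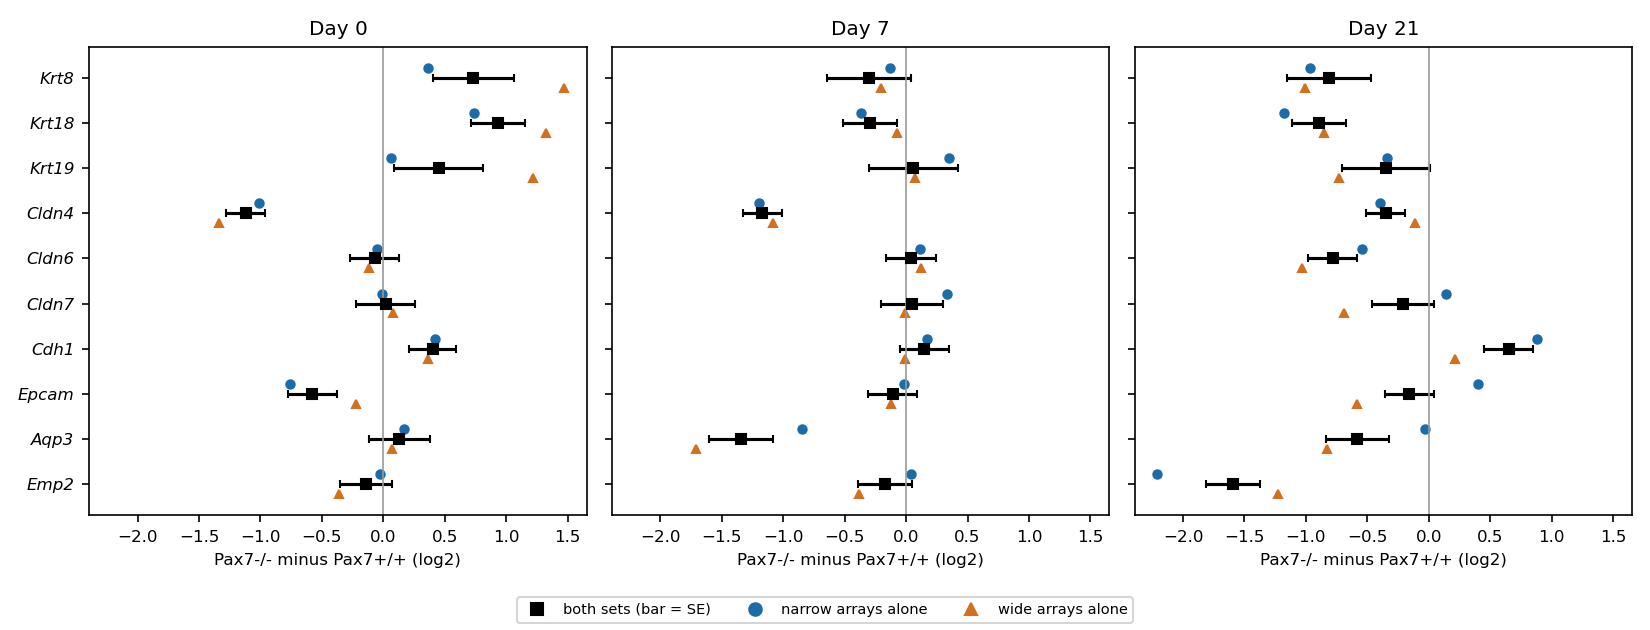
Pax7-/- minus Pax7+/+ in log2 for each gene at days 0, 7 and 21, with squares and SE bars for the fit to both array sets and circles and triangles for narrow and wide arrays alone. Cldn4 lies to the left at days 0 and 7, Aqp3 at day 7, and Emp2 furthest to the left at day 21.

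Most other junction genes did not pass a step. The lists in this and the next paragraph were written with results of these data known. Of 17 other claudins, Cldn11 rose by 0.51 ± 0.14 log2 (limma adjusted p = 0.0275) and Cldn15 fell by 0.41 ± 0.12 (0.0476) from day 0 to day 7, and 0 passed from day 7 to day 21. Of 14 further tight junction genes, 2 rose to day 7, F11r by 0.63 ± 0.10 log2 (limma adjusted p = 0.000726), the gene of junctional adhesion molecule A, and the polarity gene Pard6b by 0.88 ± 0.16 (0.0019). Of 11 desmosome genes Dsp, encoding desmoplakin, to which keratin filaments attach, rose by 1.08 ± 0.31 log2 (limma adjusted p = 0.0383) and Dsc2 by 0.57 ± 0.14 (0.016), while Perp fell by 0.80 ± 0.09 (3.51e-05). Of 12 adherens junction genes 0 rose and Vcl, encoding vinculin, fell by 0.35 log2 (limma adjusted p = 0.00766); from day 7 to day 21 Nectin3 (0.35 log2) and Vcl (0.29 log2) rose.

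Among the relatives of the 10 genes, 0 of 15 other keratins passed from day 0 to day 7, and Krt23 (1.53 ± 0.39 log2, limma adjusted p = 0.0266) and Krt6a (0.77 ± 0.19, 0.0223) rose from day 7 to day 21. Of 11 other aquaporins Aqp8 rose by 2.07 ± 0.27 log2 to day 7 (limma adjusted p = 0.00013) and by 0.93 ± 0.27 log2 to day 21 (0.0476). In the 4-gene Emp and Pmp22 family, Emp1 fell by 1.87 ± 0.17 log2 (limma adjusted p = 2.22e-06), Emp3 by 0.96 ± 0.17 (0.0013) and Perp as above from day 0 to day 7, the step in which Emp2 did not pass. Group means of Emp3 went from 7.64 to 6 log2 in Pax7+/+ and from 6.89 to 6.61 in Pax7-/-, where it did not pass (limma adjusted p = 0.572). Those of Perp went from 7.48 to 7.25 log2 in Pax7+/+ and from 8.41 to 7.05 in Pax7-/-. Of 17 epithelial regulators and proteases 4 rose (Elf3, Prss8, Esrp2 and Spint1) and 2 fell (Klf5 and Spint2) to day 7, and 4 fell to day 21, Spint1 by 0.71 log2 (limma adjusted p = 0.0017), Elf3 by 0.72 (0.0101), Grhl3 by 0.57 (0.0124) and St14 by 0.32 (0.0455). Of 11 mesenchymal genes, averaged over genotypes, Snai1 rose and Prrx1, Vim and Fn1 fell to day 7. Cdh2, encoding N-cadherin, rose on average by 0.76 ± 0.13 log2 to day 21 (limma adjusted p = 0.00226). Within Pax7+/+, the genotype in which Cdh1 passed as lower, Cdh2 differed by 0.48 ± 0.19 log2 in that step (limma adjusted p = 0.166). In Pax7-/- the group means of Cdh2 were 7.34 log2 at day 7 and 8.39 at day 21. For 2 of these mesenchymal genes, Cdh11 and Snai2, the average covers opposite courses to day 7. Cdh11 fell by 1.27 ± 0.17 log2 in Pax7+/+ (limma adjusted p = 0.000273) and rose by 1.24 ± 0.17 in Pax7-/- (0.000425), and Snai2 fell by 0.77 ± 0.21 (0.0454) and rose by 1.01 ± 0.21 (0.0113). Vim fell by 0.91 ± 0.15 in Pax7+/+ (limma adjusted p = 0.00125) and differed by 0.10 ± 0.14 in Pax7-/- (0.759). Prrx1 and Fn1 did not pass in Pax7-/-, at -0.4 ± 0.28 log2 (limma adjusted p = 0.499) and -0.45 ± 0.22 (0.315). Their Pax7+/+ group means were 7.57 and 11.17 log2 at day 0, and 6.06 and 10.09 at day 7. The difference between genotypes in this step was 2.51 ± 0.24 log2 for Cdh11 (limma adjusted p = 0.00016), 1.79 ± 0.30 for Snai2 (0.0115) and 1.02 ± 0.21 for Vim (0.0391), where 0.329% of all genes passed in that direction.

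Between genotypes at day 0, 1 gene of these lists was higher in Pax7-/-, Perp by 0.93 ± 0.13 log2 (limma adjusted p = 0.00192), and 2 were lower, Fn1 by 1.05 ± 0.22 (0.0256) and Cdh11 by 0.93 ± 0.17 (0.011). The 2 lower calls became 0 without Pax7+/+ day 0 replicate 2 or Pax7-/- day 0 replicate 1 or 2, 1 without replicate 1 of the former or 3 of the latter group, and 3 without Pax7+/+ day 21 replicate 1. At day 7 Snai2, a Snail family repressor, was higher by 0.99 ± 0.21 log2 (limma adjusted p = 0.0477) and Cdh11 by 1.58 ± 0.17 (0.0022), and 0 were lower. Cldn3, which lies next to Cldn4 in RefSeq order, differed by -0.64 ± 0.22 log2 then (limma adjusted p = 0.264). At day 21, 6 were higher and 0 lower: Cdh2 by 1.21 ± 0.19 log2 (limma adjusted p = 0.00139), Nectin1 by 0.66 ± 0.14 (0.0111), and Cdh11, Perp, Nectin3 and Pard3 by 0.36 to 0.69 log2. Leaving out 1 array gave 1 to 6 higher, with the fewest without Pax7-/- day 21 replicate 3, and each array set alone gave 1 (narrow) and 4 (wide). The lower count at day 21 was 0 to 3 without 1 array, 2 in the narrow and 9 in the wide arrays, and the higher count at day 7 was 1 or 2 without 1 array.

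Endoderm markers rose in the step in which the keratins rose, where on average 4.78% of all genes rose and 4.99% fell. Of 8 parietal endoderm markers 7 rose and 1 fell from day 0 to day 7, and their mean level ran from 6.63 to 7.66 log2 at day 0, from 8.97 to 9.89 at day 7 and from 9.55 to 10.39 at day 21 in Pax7+/+. In Pax7-/- it ran from 7.28 to 8.68, from 8.86 to 9.76 and from 8.46 to 9.84 log2. Between genotypes 5 of the 8 passed as higher in Pax7-/- at day 0 (0.388% of all genes) and 4 as lower at day 21 (1.07%). Of 10 visceral endoderm markers 9 rose from day 0 to day 7, with mean levels of 5.08 to 6.16 and 6.91 to 7.81 log2 in Pax7+/+ and 5.74 to 6.35 and 7.15 to 8.0 in Pax7-/-. At day 21 the visceral mean ran from 6.76 to 8.08 log2 in Pax7+/+ and from 6.30 to 6.95 in Pax7-/-, where every array was below those of day 7, while Krt8 and Krt18 differed by -0.23 and -0.22 log2 in that step of Pax7-/-. Cubn, which encodes the endocytic receptor cubilin, fell in it by 2.87 ± 0.43 log2 (limma adjusted p = 0.00498). Afp and Apoa1 differed by -1.92 ± 0.63 (limma adjusted p = 0.19) and -1.77 ± 0.53 (0.152). Foxa2 and Sox17 went the other way in Pax7-/-, with group means of 7.29 and 6.61 log2 at day 7 and 7.8 and 6.75 at day 21. No marker can read 0 on this scale. The part of these cells in the keratin differences was not tested.

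Of 10 trophoblast markers 1, Plet1, rose to day 7 (0.55 log2), and it was lower in Pax7-/- by 1.21 ± 0.17 log2 at day 7 (limma adjusted p = 0.0065), as Aqp3 and Cldn4 were. Trophoblast mean levels were 5.6 to 5.71 log2 in Pax7+/+ and 5.04 to 5.40 in Pax7-/- at day 7. Group means were 3.93 to 4.15 log2 for Elf5, under the array medians, and 6.97 to 8.73 for Plet1. From day 0 to day 7 Hand1 went from 5.2 to 6.12 log2 in Pax7+/+ and from 5.1 to 5.18 in Pax7-/-. Tpbpa went from 4.37 to 5.34 and from 4.05 to 4.44. Among squamous markers, Krt14 and Trp63 had group means of 4.27 to 4.82 and 4.48 to 5.04 log2. Those of Perp and Sfn were 6.49 to 8.41 and 6.26 to 6.83 log2. Of 7 pluripotency markers 6 fell to day 7, when Cdh1 and Epcam did not pass and 4.99% of all genes fell. All 7 were lower at day 21 than at day 0 on average over both genotypes, as were 2651 of all 22180 genes. Klf4 in Pax7+/+ had group means of 8.76, 7.34 and 8.61 log2 at days 0, 7 and 21. Averaged over both genotypes, 5 of 7 neural progenitor markers and 4 of 8 fibroblast markers rose from day 7 to day 21, where 2.50% of all genes rose. The average covers unlike courses. Sox1 went from 5.6 to 6.24 log2 in Pax7+/+ and from 5.81 to 8.0 in Pax7-/-. Col1a1 went from 6.84 to 8.68 log2 in Pax7+/+ and from 7.37 to 7.57 in Pax7-/-. In Pax7+/+ the fibroblast markers other than Col3a1 and Pdgfra had higher group means at day 0 than at day 7. Dcn was at 7.53, 4.47 and 7.31 log2 and Col1a2 at 7.21, 5.78 and 7.89 at days 0, 7 and 21. The part of these cell types was not tested.

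Krt8 and Krt18 followed nearly the same course. Likeness was measured as the root mean square log2 difference over 12 means, 1 for each group in each array set, after each gene was centred within its set. Among 22179 other genes Krt8 ranked 2 for Krt18, at 0.27 log2, between Kit (0.22), the gene of a receptor tyrosine kinase, and Col4a1 (0.28), that of a basement membrane collagen chain. Nearest to Krt8 were Hs3st1 (0.18), the endoderm factor gene Gata4 (0.19) and P4ha2 (0.25), and nearest to Krt19 were Dsp (0.19), Nog (0.21) and Flrt3 (0.21). The second probe set of Krt18, at 4.64 to 7.99 log2, gave 1.59 ± 0.25 log2 up to day 7 and -0.41 ± 0.24 log2 after it.

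The other genes had other nearest genes. They were Ccna2 (0.11), Timm23 (0.13) and Suz12 (0.16) for Cdh1, St3gal1 (0.16), Rassf3 and Rras2 (0.22 each) for Cldn6, and Togaram1 (0.16), Tbc1d15 and Haus5 (0.17 each) for Epcam. Htra1 (0.25), Nme6 (0.27) and Scd3 (0.29) were nearest to Aqp3, Snora73b (0.28), Porcn and Swt1 (0.31 each) to Cldn4, Creb3l1 (0.33), Neat1 (0.35) and Muc3 (0.42) to Emp2, and Apoc2, Hcfc2 and Daam2 (0.12 each) to Cldn7. Aqp3 and Cldn4 stood 0.45 log2 apart. The neighbours in RefSeq order of Cldn4, Cldn6, Cdh1, Aqp3 and Krt19, the related genes Cldn3, Cldn9, Cdh3, Aqp7 and Krt15, passed neither step.

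**Figure D4:**
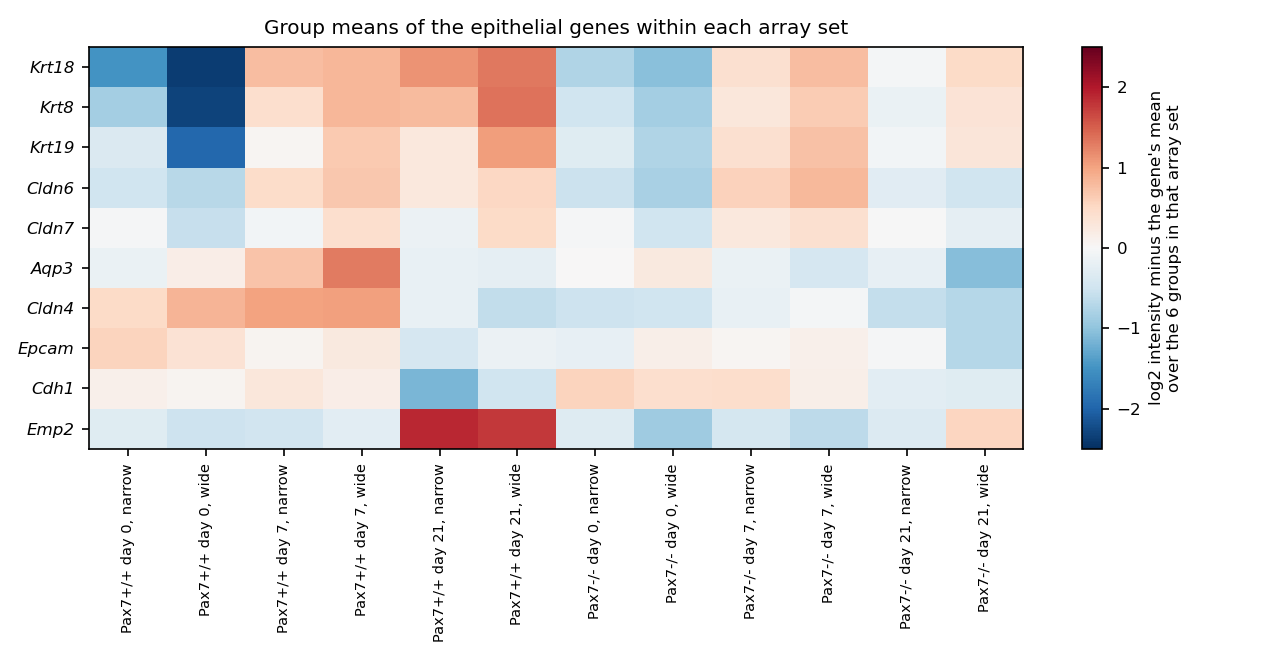
Heat map of the 10 genes (rows) over 12 columns, 1 for each group in each array set, where colour gives the mean log2 intensity minus the gene's mean over the 6 groups of that set. The 3 keratin rows run from blue at Pax7+/+ day 0 to red at days 7 and 21, and the Emp2 row is reddest at Pax7+/+ day 21 in both sets.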

How the data were processed

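RNA was measured on 18 arrays, 3 biological replicates in each of 6 groups by genotype and day. The authors deposited 1 log2 intensity for each probe set and array. The submitters' processing notes name RMA and Partek, without versions or order. Of 41345 probe sets, 23521 had 1 gene symbol, 1814 several and 16010 none, which gave 22180 genes, 1082 with several probe sets; symbols were updated to RefSeq through gene identifiers. Differences were fitted with limma 3.58.1 in R 4.3.3 (6 group means, array set as a fixed block, 11 residual degrees of freedom, eBayes without trend) and tested on simulated data. The array sets were split at an SD of 1.6 log2.

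The members, lists and tests were chosen with earlier results of these data known. All 10 genes are named. Of each list, up to 4 genes per comparison that passed are named, smallest adjusted p first. Some genes that did not pass are named as well, among them cell type markers. The number of arrays limits the precision, and an exact permutation test of 3 arrays against 3 has 0.1 as its smallest p. p-values reflect the spread between replicates that the labels call biological. Alternatives covered the block, each set alone, normalization, filters, probe sets, limma options, thresholds, each array left out in turn and a replicate block. Plots used matplotlib 3.10.9 under Python 3.11.15. Some listed genes are not reported here.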

Additional observations from a re-analysis of the deposited data

Results flagged for a closer look

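The genotype difference changed between days for 2 genes in a screen with limma at an adjusted p under 0.05. Since the genes were chosen with genotype values known, the screen is no test, and values are given without p. For Krt18 the difference changed by -1.83 ± 0.31 log2 from day 0 to day 21, from higher to lower in Pax7-/-. Without 1 array it ran from -2.0 to -1.54 and met the screen each time. It was -1.53 with the mean of its probe sets and -1.37 without the array set block, and met the screen in neither.

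For Emp2 it changed by -1.42 ± 0.32 log2 from day 7 to day 21. Leaving out 1 array gave -1.56 to -0.95, with the smallest change without Pax7-/- day 21 replicate 1, and 14 of 18 such fits did not meet the screen. From day 0 to day 21 the Emp2 change was -1.45 ± 0.31 log2, or -1.71 to -1.04 without 1 array, and 4 of 18 fits did not meet it. The narrow arrays alone gave -2.25 and -2.18, the wide arrays alone -0.84 and -0.86, the replicate block -1.37 and -1.42 and the fit without the array set block -0.28 and -0.88, of which only the narrow arrays met the screen.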

How the results depend on the processing

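Without the array set block the counts passing were 0 in every step, and the median genotype difference at day 7 was -0.65 log2. Over all genes 1060 rose and 1106 fell on average to day 7, against 15 and 10 without the block, and 555 rose and 1068 fell from day 7 to day 21, against 4 and 3. Each array set alone gave 2 lower genes from day 7 to day 21 on average, 4 higher from day 0 to day 7 in Pax7-/- and 0 lower from day 7 to day 21 in Pax7-/-; wide arrays alone gave 1 higher there and a median genotype difference of -0.78 log2 at day 21. Quantile normalization gave 4 higher in Pax7-/- to day 7, as did median centring with a common SD, which gave 2 higher in Pax7+/+ from day 7 to day 21. At an adjusted p under 0.01, 3 were higher in Pax7+/+ to day 7 and 0 lower in Pax7-/- to day 21. With at least 2-fold asked as well, 0 were lower on average from day 7 to day 21 or from day 0 to day 21. Leaving out 1 array gave 3 to 5 higher in Pax7+/+ and 2 to 4 in Pax7-/- to day 7, and 0 to 1 higher and 0 to 2 lower in Pax7-/- to day 21.

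No difference past the threshold in either fit changed sign. Those under it that did were as follows. Without the block, Epcam read 0.21 and Cdh1 0.21 on average and Epcam 0.26 in Pax7+/+ to day 7; from day 7 to day 21 Krt8 read -0.03, Krt18 -0.08 and Krt19 -0.23 in Pax7+/+, and Epcam 0.01, Krt8 0.09 and Krt18 0.23 in Pax7-/-. In narrow arrays Cdh1 read 0.02 and Emp2 -0.15 to day 7, Krt8 -0.03 and Krt18 -0.05 from day 7 to day 21, Cldn7 -0.05 from day 0 to day 21, and in Pax7+/+ to day 7 Cldn7 -0.05 and Emp2 -0.18. In wide arrays Cldn7 read 0.05 from day 7 to day 21 in Pax7+/+, and Epcam -0.02 and Emp2 0.23 to day 7 in Pax7-/-. Quantile normalization gave Cdh1 0.06 and Emp2 -0.05 to day 7, and Emp2 -0.02 in Pax7+/+; median centring, with and without a common SD, gave Emp2 -0.01. The mean of all probe sets gave Krt18 -0.17 from day 7 to day 21 and Cdh1 -0.08 to day 7 in Pax7+/+.

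Without 1 array, to day 7, Epcam ran from -0.15 to 0.00, Cdh1 from -0.11 to 0.03 and Emp2 from -0.11 to 0.07 on average, Cdh1 from -0.02 to 0.21 and Emp2 from -0.07 to 0.15 in Pax7+/+, and Epcam from 0.00 to 0.30 and Emp2 from -0.22 to 0.10 in Pax7-/-. From day 7 to day 21 Krt8 ran from -0.08 to 0.13 and Krt18 from -0.01 to 0.18 on average, Krt19 from -0.28 to 0.24 in Pax7+/+, and Krt8 from -0.42 to 0.01 and Krt18 from -0.38 to 0.02 in Pax7-/-. Same-numbered arrays of the 2 genotypes on the same day had residual correlations of -0.22 to 0.23. These values cannot decide whether the numbers pair samples. Residuals within a small group are tied to each other by the fit, and arrays of different days were not compared. With the replicate block 68 of 70 differences kept their side of the threshold and direction. In that fit 1 call was lost (Cldn4 to day 7) and Krt19 read -0.06 from day 7 to day 21 in Pax7+/+. The causes were not tested. Cldn7 was left out by the median filter.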
